A study of Mus musculus with 8 samples.

Results

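The genes described here encode the TRAF adaptors and their partners at TNF receptors, a set of 10 genes picked by name from what their proteins do: Traf1, Traf2, Traf3, Traf4, Traf5 and Traf6, the inhibitor of apoptosis (IAP) genes Birc2 (cIAP1), Birc3 (cIAP2) and Xiap, and Map3k14, which encodes NF-kB-inducing kinase (NIK). All 10 were found among the 20172 genes of the table, and all 10 passed the filter on low values. The data are 8 stranded total RNA libraries, 4 of TNFR2+ and 4 of TNFR2- Tregs, each made from 100000 cells sorted as YFP+ CD4 T cells from the spleen of Foxp3 YFP-cre mice (also written Foxp3CreYFP). The series describes these mice as female, and the age given for the mice of the study is 8 to 12 weeks. Cre and YFP are driven by the Foxp3 gene in both populations, so both were marked by activity of the same promoter, and they were parted only by surface TNFR2. The labels name no treatment, and an n of 4 is given for this comparison without saying whether each library is a separate mouse, a pool of mice or a separate sort, so p-values measure the spread between these samples, which may be technical.

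TRAFs are cytoplasmic adaptors that carry signals from receptors of the TNF and Toll-like/IL-1 families to NF-kB and MAP kinases. TNFR2 has no death domain, and it recruits TRAF2 directly, with TRAF1 joining TRAF2 and the ubiquitin ligases cIAP1 and cIAP2 binding through TRAF2. In unstimulated cells TRAF3, TRAF2 and the cIAPs keep NIK protein low by marking it for degradation, and when a receptor draws them away NIK accumulates and starts the alternative NF-kB pathway. TNFR2 is a growth and survival receptor of Tregs, and these libraries ask how the transcripts of the machinery beneath it differ between Tregs that do and do not carry it at the surface.

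The values are the authors' normalized counts, in libraries with an estimated 9100000 to 12110000 reads. Tnfrsf1b, the gene of TNFR2, was at 2501 ± 544 normalized counts in TNFR2+ and 1321 ± 168 in TNFR2- Tregs (SD, n = 4 each; log2 fold change 0.90 ± 0.16 SE, adjusted p = 0.00449). The labelled cell type was borne out by its markers, since all 7 Treg markers listed, Foxp3 included, were present in every library. Of these 7, Ikzf2 (log2 fold change 0.95), Ctla4 (0.89), Tnfrsf18 (0.88) and Cd3e (0.51) were higher in TNFR2+ Tregs, while Foxp3 (-0.23, adjusted p = 0.232), Cd4 (0.28) and Il2ra (-0.34, adjusted p = 0.086, the groups not overlapping) did not pass the test. TNFR2- replicate 3 stood apart on the second principal component (91.32, against -39.08 to 17.96 in the other 7 libraries), so values without it are given where the call of a member changes. The summed counts of 9 genes of dividing cells were 7592 to 11365 in TNFR2+ and 2718 to 4361 in TNFR2- Tregs. Of these 9, 6 were higher and 0 lower, Mki67 having the highest mean in TNFR2+ Tregs (3834 ± 1014, against 577 ± 289). Pcna went the other way without passing (1416 ± 109 and 1616 ± 356, log2 fold change -0.17, adjusted p = 0.573). The sums of 13 B cell genes, mostly Ighm, were 4863 to 7044 and 2015 to 3368, and those of 7 myeloid genes, mostly Ctss, were 1489 to 1844 and 1155 to 1511. These 7 were the myeloid genes with a row, of 13 listed. Apart from Ctss and Cst3 (118 to 214), each was at 68.0 or less in every library. Cytotoxic, erythroid and platelet genes summed to at most 221 per list in any library. Only 6 of 8 cytotoxic, 1 of 7 erythroid and 1 of 6 platelet genes listed had a row, so the last 2 sums say little. Of the 3 cytotoxic genes tested, Nkg7 was higher in TNFR2+ Tregs (64.3 ± 19.3 and 7.83 ± 7.29, log2 fold change 3.19, adjusted p = 0.00927). Of the 8 B cell genes tested, Ighm (log2 fold change 1.27) and Cd74 (1.72) were higher in TNFR2+ Tregs, and Cd22 did not pass but did not overlap either (309 ± 35.6 and 150 ± 70.6). Among the defining B cell genes, Cd79a was at 6.1 or less in every library, Pax5 at 41.0 or less, Cd79b at 65.0 or less and Ms4a1 at 99.0 or less. The part of these other cells and of dividing cells in the results below was not tested. In sorted bulk samples, fewer cells with a transcript and less RNA per cell cannot be told apart.

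Of the 10 transcripts, Birc3 and Map3k14 were lower and Traf4 was higher in TNFR2+ Tregs, and the other 7 did not pass the test (limma, Benjamini-Hochberg adjusted p under 0.05 over 13990 genes). That is 3 of 10 members, against 7.91% called of all genes tested (4.52% higher and 3.39% lower) and 15.9% of the 3502 genes expressed at least as highly as the lowest member. The members had no common direction: 5 log2 fold changes were above 0 and 5 below, and their median was -0.01, as was that of all genes tested. The values of the 2 groups did not overlap for 4 members, 3 of them lower and 1 higher, Traf5 being the one that was not called, against 15.4% of all genes (7.29% lower and 8.08% higher). At an unadjusted p under 0.05 there were 5 members, against 23.0% of all genes. No member was called without TNFR2- replicate 2.

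**Figure D1:**
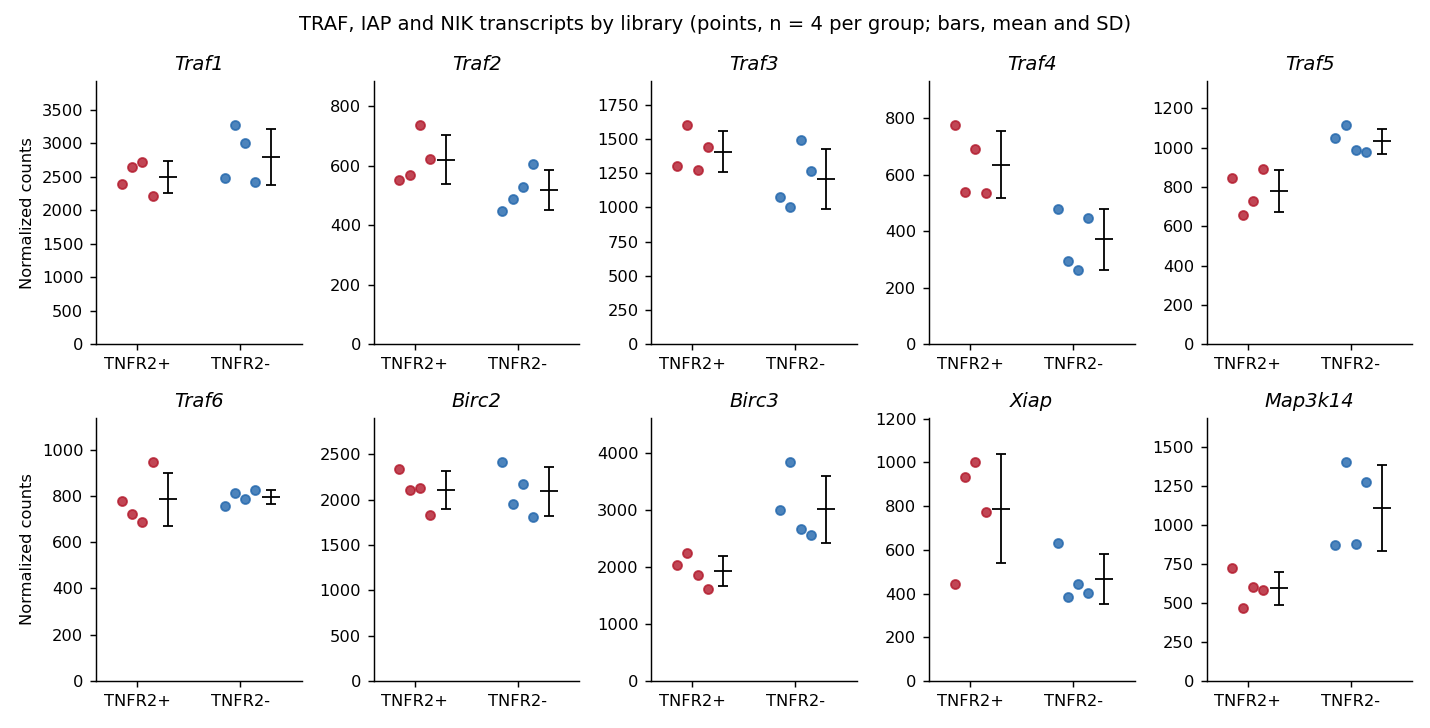
Normalized counts (y axis, starting at 0) of the 10 members in each library, with TNFR2+ Tregs in red and TNFR2- Tregs in blue; points are libraries (n = 4 per group) and bars are the mean with SD. The groups separate without overlap for Traf4, Traf5, Birc3 and Map3k14, while Birc2 and Traf6 lie at the same level in both.

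Map3k14, on chromosome 11 (GRCm38, 103219762 to 103267472, minus strand), encodes NIK, the kinase that activates IKK alpha in the alternative pathway. Its normalized counts were 726, 466, 602 and 580 in TNFR2+ replicates 1 to 4, and 874, 1406, 875 and 1275 in TNFR2- replicates 1 to 4. Every TNFR2+ library was below every TNFR2- library, and within the TNFR2- group replicates 2 and 4 were higher than the other two. The mean of 593 ± 107 against 1107 ± 274 (SD, n = 4 each) was a ratio of 0.54 and a log2 fold change of -0.88 ± 0.20 (SE; 95% interval -1.31 to -0.46, adjusted p = 0.0149), the largest change among the members. The exact permutation test gave p = 0.0286, the smallest that 4 against 4 libraries allow. The call was lost without TNFR2+ replicate 2 (log2 fold change -0.77, adjusted p = 0.0548), without TNFR2- replicate 2 (-0.76, adjusted p = 0.0535) and in a fit without the intensity trend (-0.88, adjusted p = 0.0835). A predicted gene on the same strand, 1700028N14Rik, overlaps Map3k14, and its mean was 21.8 in TNFR2+ and 36.1 in TNFR2- Tregs.

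Birc3, on chromosome 9 (7848699 to 7873186, minus strand), encodes cIAP2, a ubiquitin ligase of the receptor complex whose own transcription is induced by NF-kB in many cells. It stood at 2028, 2240, 1856 and 1617 normalized counts in TNFR2+ replicates 1 to 4 and at 2999, 3851, 2664 and 2555 in TNFR2- replicates 1 to 4. The groups did not overlap, and TNFR2- replicate 2 was the highest library. The means were 1935 ± 264 and 3017 ± 587, a ratio of 0.65, with a log2 fold change of -0.63 ± 0.15 (SE; 95% interval -0.96 to -0.31, adjusted p = 0.0206, exact permutation p = 0.0286). The call was lost without TNFR2+ replicate 3 (adjusted p = 0.0596), TNFR2+ replicate 4 (0.0581) or TNFR2- replicate 2 (0.0635), and also without the intensity trend (0.117), with libraries rescaled to the same sum (0.05) and after quantile normalization (0.0584). Short stretches of Birc3 are shared with the pseudogenes Gm7019 (99.2% identity over 369 bases) and Gm43393 (96.4% over 193 bases), neither of which has a row in the table used. Stretches of 154 to 192 bases, at up to 97.2% identity, are shared with 6 genes that do have rows, Dclre1c, Dnajc14, Ggnbp1, Gm38393, Paip2b and Topbp1.

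Birc2, which encodes cIAP1, the close relative of cIAP2 that ubiquitinates RIPK1 and NIK, lies next to Birc3 on the same strand of chromosome 9 (7818227 to 7837064), with 11634 bases between them. Its normalized counts were 2340, 2111, 2132 and 1828 in TNFR2+ and 2420, 1956, 2174 and 1811 in TNFR2- replicates 1 to 4. The means of 2103 ± 210 and 2090 ± 266 lay within each other's spread, and the log2 fold change was 0.01 ± 0.13 (SE; 95% interval -0.27 to 0.29, adjusted p = 0.972). The ratio of Birc3 to Birc2 in a library, which removes any scaling of the library, was 0.87, 1.06, 0.87 and 0.88 in TNFR2+ and 1.24, 1.97, 1.23 and 1.41 in TNFR2- replicates 1 to 4. The ratio was thus lower in all 4 TNFR2+ libraries (log2 difference -0.64, exact permutation p = 0.0286, 0.0381 after adjustment over the 4 ratios compared).

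Xiap, on the X chromosome (42059679 to 42109656, plus strand), encodes the IAP that binds and inhibits caspases directly. Its normalized counts were 445, 933, 1004 and 774 in TNFR2+ and 632, 386, 445 and 401 in TNFR2- replicates 1 to 4. Of the TNFR2+ libraries, 3 were above every TNFR2- library, and TNFR2+ replicate 1 lay within the TNFR2- range. With all 8 libraries the means of 789 ± 249 and 466 ± 114 gave a log2 fold change of 0.72 ± 0.25 (SE; 95% interval 0.18 to 1.26), which did not pass the test (adjusted p = 0.102, exact permutation p = 0.0857). Without TNFR2+ replicate 1 it was 0.97 and passed (adjusted p = 0.0187), so this library decided the call.

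Traf4, on chromosome 11 (78158499 to 78165589, minus strand), encodes the TRAF best known from epithelial and neural development, with a less settled place at TNF receptors. Its normalized counts were 777, 540, 693 and 534 in TNFR2+ and 480, 294, 263 and 447 in TNFR2- replicates 1 to 4. Every TNFR2+ library was above every TNFR2- library, though the nearest, 534 and 480, were close. The means were 636 ± 119 and 371 ± 109 (ratio 1.75), with a log2 fold change of 0.80 ± 0.23 (SE; 95% interval 0.32 to 1.29, adjusted p = 0.0455, exact permutation p = 0.0286). This was the weakest of the 3 calls, kept when TNFR2- replicate 1 or 4 was left out but lost without any of the other 6 libraries (log2 fold change 0.65 to 0.88, adjusted p 0.0551 to 0.13; without TNFR2- replicate 3, 0.65 and 0.0842). It was also lost without the intensity trend (adjusted p = 0.128) and with array weights (0.0515).

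Traf5, on chromosome 1 (191997205 to 192092559, minus strand), encodes a relative of TRAF2 that binds CD27, OX40 and CD40. It stood at 847, 656, 731 and 890 normalized counts in TNFR2+ and at 1047, 1116, 989 and 980 in TNFR2- replicates 1 to 4. All TNFR2+ libraries were below all TNFR2- libraries (exact permutation p = 0.0286), but the log2 fold change of -0.41 ± 0.14 (SE; 95% interval -0.72 to -0.10) did not pass the test over all genes (adjusted p = 0.101) under any of the 17 alternatives tried. The gene overlaps the pseudogene Gstp-ps, whose mean was 4.38 in TNFR2+ and 11.1 in TNFR2- Tregs.

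The remaining TRAFs did not pass the test, and their groups overlapped. Traf1, an NF-kB-induced adaptor without the RING domain of the other TRAFs, ranged over 2216 to 2727 normalized counts in TNFR2+ and 2418 to 3277 in TNFR2- Tregs (log2 fold change -0.16, 95% interval -0.44 to 0.12, adjusted p = 0.515). Traf2, the adaptor that binds TNFR2 itself, ranged over 552 to 737 and 448 to 605 (0.26, -0.09 to 0.62, adjusted p = 0.376). Traf3, the brake on NIK, ranged over 1275 to 1602 and 1004 to 1495 (0.23, -0.10 to 0.56, adjusted p = 0.402). Traf6, the ubiquitin ligase of Toll-like and IL-1 receptors, ranged over 688 to 949 and 756 to 824 (-0.03, -0.34 to 0.29, adjusted p = 0.943). The upper bounds of these intervals allow a rise of Traf2 or Traf3 of up to 0.62 and 0.56 on the log2 scale, so small differences in either were not detectable with 4 libraries a group. Counting error was 1.65% to 6.62% of a member's value in a library, and it covers counting alone.

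**Figure D2:**
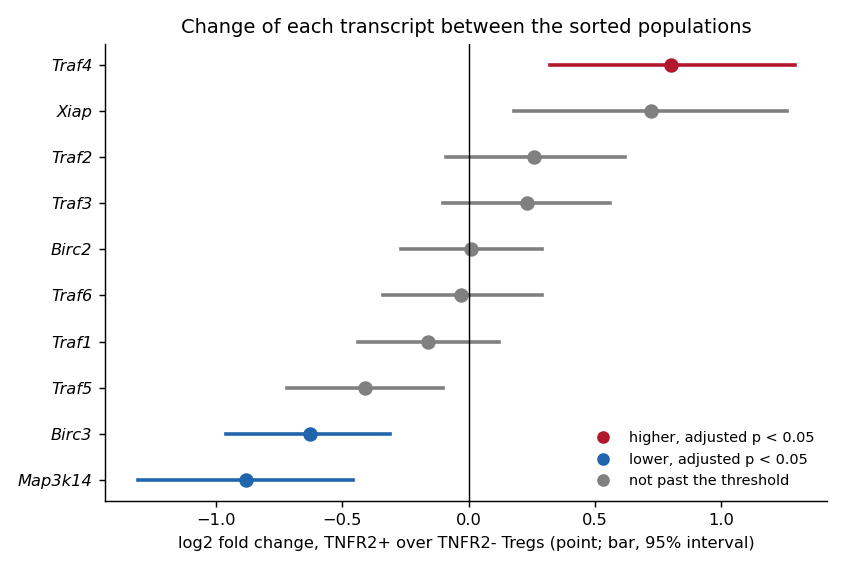
Log2 fold change of each member (x axis, TNFR2+ over TNFR2- Tregs, 4 libraries each) with its 95% interval from limma. Traf4 (0.80, red) is past the threshold above 0 and Birc3 (-0.63) and Map3k14 (-0.88, both blue) below it, while the intervals of Xiap and Traf5 exclude 0 without passing the adjusted threshold and the other 5 span 0.

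The balance between partners was compared within libraries by 3 further ratios of normalized counts, which measure a shift between groups and not relative abundance, since gene lengths differ. Birc3, Map3k14 and Traf5 were each lower in every TNFR2+ library on their own, so the ratios that contain them are not separate support. Map3k14 to Traf3, the kinase over its brake, was 0.56, 0.29, 0.47 and 0.40 in TNFR2+ and 0.82, 1.40, 0.59 and 1.01 in TNFR2- replicates 1 to 4. It was lower in all TNFR2+ libraries (log2 difference -1.11, exact permutation p = 0.0286, adjusted p = 0.0381). Traf5 to Traf2 was 1.53, 1.15, 0.99 and 1.43 in TNFR2+ and 2.34, 2.28, 1.88 and 1.62 in TNFR2- replicates 1 to 4. It was also lower in all TNFR2+ libraries (log2 difference -0.67, exact permutation p = 0.0286, adjusted p = 0.0381). Traf1 to Traf2, the partners in the TNFR2 complex, was 3.56 to 4.64 in TNFR2+ and 3.99 to 6.69 in TNFR2- libraries. These overlapped, and the difference of -0.42 did not pass (exact permutation p = 0.0857).

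**Figure D3:**
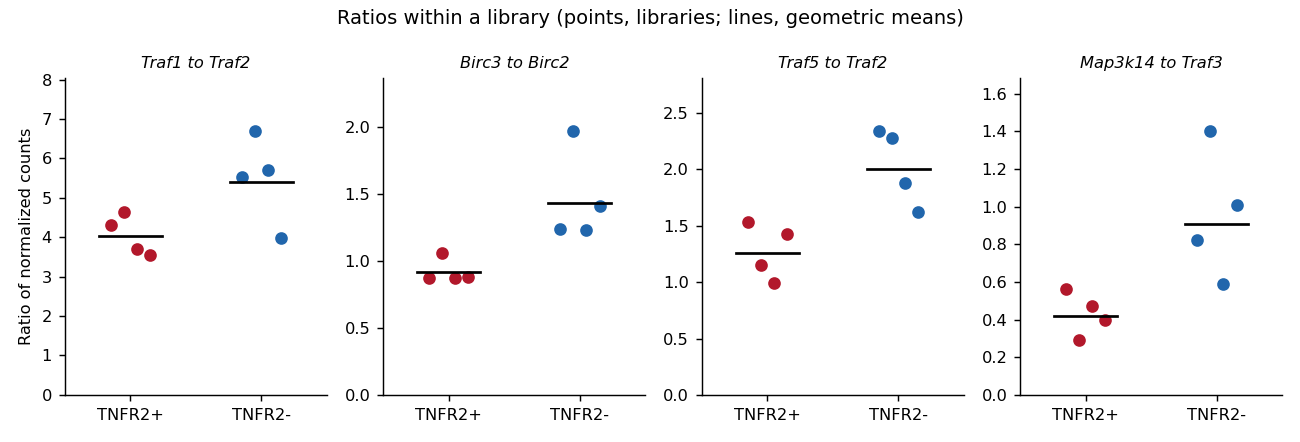
Ratio of the normalized counts of member pairs in each library (y axes, starting at 0), with TNFR2+ libraries in red and TNFR2- in blue (n = 4 per group) and lines at the geometric means. Birc3 to Birc2, Traf5 to Traf2 and Map3k14 to Traf3 are lower in every TNFR2+ library, and Traf1 to Traf2 overlaps.

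Divided by the length of the longest coding transcript, the members spanned from Traf1, Birc3 and Birc2 at the top to Traf6 and Xiap at the bottom. In TNFR2+ Tregs, Traf1 was at 726 ± 68.6, Birc3 at 665 ± 90.8 and Birc2 at 631 ± 63.1 normalized counts per kb (SD, n = 4), and these 3 overlapped. Traf5 followed at 398 ± 54.5, below Birc2 without overlap, then Traf4 at 306 ± 57.4. Traf2 (204 ± 27.3 per kb) and Traf3 (199 ± 21.3) lay below Traf4 and overlapped each other, and Map3k14 (140 ± 25.2), Traf6 (127 ± 18.7) and Xiap (115 ± 36.4) formed the lowest, overlapping set. In TNFR2- Tregs, Birc3 came first at 1037 ± 202 per kb, overlapping Traf1 at 814 ± 121, and Map3k14 moved up to the fifth place at 261 ± 64.6, overlapping Traf4 at 179 ± 52.2. Xiap was the lowest in both populations, at 68.3 ± 16.6 per kb in TNFR2- Tregs, where it lay below Traf6 (129 ± 4.93) without overlap. The order rests on the transcript length used, and with the median transcript length Traf5 came above Birc2, and Birc2 no longer overlapped Birc3.

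**Figure D4:**
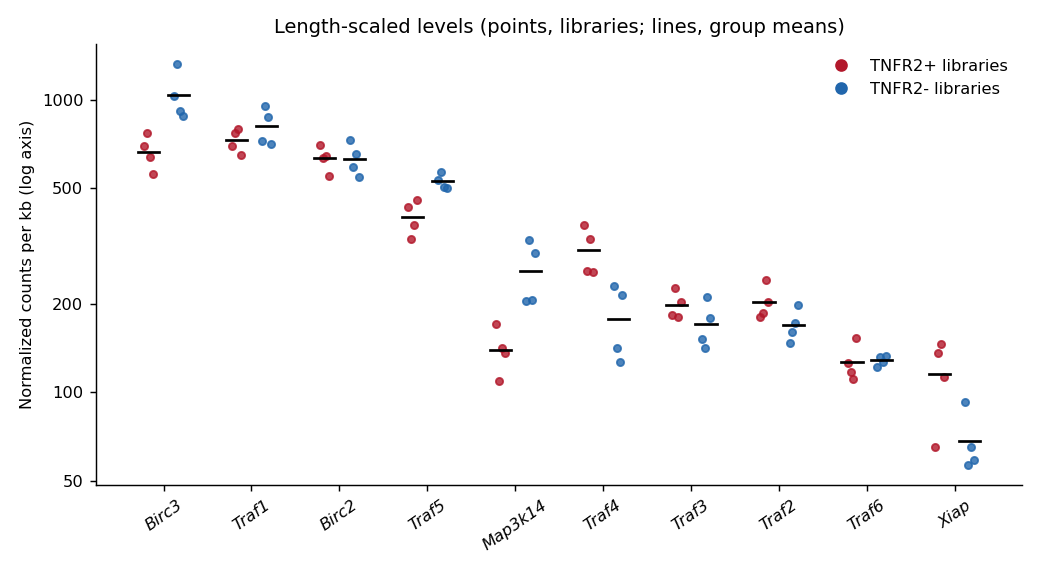
Normalized counts per kb of the longest coding transcript (y axis, log scale) for the 10 members, with TNFR2+ libraries in red, TNFR2- libraries in blue (n = 4 each) and lines at the group means. Birc3, Traf1 and Birc2 are the highest and Traf6 and Xiap the lowest in both populations.

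As a share of the summed TRAF transcripts per kb, Traf1 made up 37.0% in TNFR2+ Tregs (33.6 to 40.7% over libraries) and 40.8% in TNFR2- Tregs (36.5 to 45.5%), the largest share of the family in both. Traf4 took 15.6% (13.4 to 18.8%) and 9.07% (6.27 to 12.1%), and Traf5 20.3% (17.6 to 23.6%) and 26.5% (25.0 to 27.9%). Neither overlapped between the groups. Among the 3 IAP members, Birc3 gave 47.0% in TNFR2+ Tregs, with 44.8% in the lowest library, and 59.6% (55.7 to 67.3%) in TNFR2- Tregs, above every TNFR2+ library, and Birc2 44.8% (41.1 to 48.0%) and 36.4% (29.8 to 40.0%). Xiap gave 8.23% (4.44 to 10.3%) and 3.96% (2.87 to 5.0%), which overlapped. A share also moves when other genes of its sum change, and Birc2 itself had a log2 fold change of 0.01. These shares rest on the longest transcript. With it Birc2 and Birc3 overlapped within TNFR2+ Tregs, and with the median transcript length Birc3 was at 1118 ± 153 and Birc2 at 672 ± 67.2 normalized counts per kb there, without overlap.

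The promoter sequences of the 3 members that passed the test are shown with that of Traf3, the only member with a match to the NF-kB consensus in the window searched. Each is the 250 bases before a RefSeq start on GRCm38.p6, 5′ to 3′ on the gene's strand, in lower case, with capitals for the NF-kB match: Birc3 at chr9:7873171-7873420, Map3k14 at chr11:103267402-103267651 and Traf4 at chr11:78165551-78165800, all on the minus strand, and Traf3 at chr12:111166120-111166369 on the plus strand.
Birc3: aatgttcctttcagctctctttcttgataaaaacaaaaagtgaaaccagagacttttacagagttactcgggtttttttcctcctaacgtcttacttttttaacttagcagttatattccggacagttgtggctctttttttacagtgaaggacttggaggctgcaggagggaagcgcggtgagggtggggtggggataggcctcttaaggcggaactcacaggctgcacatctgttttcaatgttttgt
Map3k14: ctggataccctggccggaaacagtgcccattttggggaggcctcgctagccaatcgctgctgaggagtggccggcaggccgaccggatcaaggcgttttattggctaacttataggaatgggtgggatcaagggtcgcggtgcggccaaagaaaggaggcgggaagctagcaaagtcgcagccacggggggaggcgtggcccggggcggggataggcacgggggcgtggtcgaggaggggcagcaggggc
Traf4: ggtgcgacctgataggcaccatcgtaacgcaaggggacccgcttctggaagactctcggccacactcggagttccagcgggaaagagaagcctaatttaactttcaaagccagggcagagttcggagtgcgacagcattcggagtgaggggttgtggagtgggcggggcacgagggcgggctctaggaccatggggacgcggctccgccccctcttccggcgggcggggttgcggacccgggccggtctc
Traf3: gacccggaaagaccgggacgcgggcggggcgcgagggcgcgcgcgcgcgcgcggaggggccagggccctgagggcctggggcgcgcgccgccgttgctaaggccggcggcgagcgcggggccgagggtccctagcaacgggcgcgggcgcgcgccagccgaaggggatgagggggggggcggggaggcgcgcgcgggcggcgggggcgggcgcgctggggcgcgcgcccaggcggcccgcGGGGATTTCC
All 10 members matched a RefSeq start, with 13 windows in all, and both strands were searched for the NF-kB consensus and for the AP-1 motif TGANTCA. The NF-kB consensus was found in 1 of 13 windows, as GGGGATTTCC in Traf3, from 10 to 1 bases before the start, and TGANTCA in 0. Of 12172 promoter windows of the same length of genes tested, 8.81% held the NF-kB consensus and 4.19% TGANTCA. A match is a run of letters and no evidence of binding, and a window without one says only that these letters are not in it. The promoters differed in base composition, with a G+C content of 43.6% in Birc3, 65.2% in Map3k14, 64.8% in Traf4 and 85.2% in Traf3, against a median of 59.6% over the windows of genes tested.

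The genes around the members were described by 8 lists written from their known roles, with 87 distinct genes tested. Of these 19 were higher and 6 lower in TNFR2+ Tregs, 28.7% in all, and their median log2 fold change was 0.18. Over all genes tested 4.52% were higher and 3.39% lower, 7.91% in all, and 15.9% of those expressed at least as highly as the lowest member were called. The count of lower genes was 3 without TNFR2+ replicate 2 or 3 or TNFR2- replicate 1 or 2. Of 9 receptors that bind TRAFs, 5 were higher and none lower (median 0.88): Tnfrsf9 (4-1BB, log2 fold change 2.66), Tnfrsf8 (CD30, 2.39), Tnfrsf4 (OX40, 1.42), Tnfrsf1b (0.90) and Tnfrsf18 (GITR, 0.88). The sort itself was made on the product of Tnfrsf1b. Beside these receptor transcripts, Traf2, which OX40, CD30 and 4-1BB also use, had a log2 fold change of 0.26.

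Of 14 receptor-proximal partners, 1 was higher and 1 lower. N4bp1, an inhibitor of NF-kB activation, rose from 528 ± 83 normalized counts in TNFR2- to 1100 ± 145 in TNFR2+ Tregs (log2 fold change 1.06, adjusted p = 0.00179). Traf3ip3, a TRAF3-binding protein with roles in lymphocyte development, fell from 1961 ± 481 to 1245 ± 52.2 (-0.62, adjusted p = 0.0321, kept in 9 of 17 alternatives). None of the 16 genes of the linear ubiquitin ligase and the deubiquitinases passed the test in limma, with 3 at an unadjusted p under 0.05, 1 higher and 2 lower. Tnfaip3, the deubiquitinase A20, stood at -0.20 and did not pass (adjusted p = 0.147). Its groups did not overlap (48882 ± 2074 normalized counts in TNFR2+ and 55996 ± 1778 in TNFR2- Tregs).

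Of 11 IKK and NF-kB subunit genes, 3 were higher, Rel (c-Rel, 0.89, adjusted p = 4.98e-04, kept in 17 of 17 alternatives), Relb (0.54, 0.0282, kept in 10) and Nfkb1 (0.42, 0.025, kept in 12). Ikbkb, the IKK beta kinase, was lower (-0.61, adjusted p = 0.0417, kept in 7 of 17 alternatives). Nfkb2, whose p100 product is the substrate of the pathway NIK starts, stood at 0.42 on the same scale. It did not pass (adjusted p = 0.0657), though it was called in 4 of 17 alternatives. Map3k14 thus fell while Relb, the partner of the processed p100, rose. Of the 14 MAP kinase branch genes none was higher and 3 were lower: Jun, from 24158 ± 5387 to 10708 ± 2347 normalized counts (-1.17, adjusted p = 0.00119), Map4k2 (-0.72, 0.00439) and Map3k3 (-0.63, 0.00891).

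Of 8 other IAP family genes and antagonists tested, 4 were higher: Birc5 (survivin, a protein of cell division as well as survival), from 50.3 ± 23.9 to 287 ± 23.5 normalized counts (2.59, adjusted p = 5.06e-04), Naip5 (1.70), Naip6 (1.64) and Naip2 (1.24, kept in 9 of 17 alternatives). The NAIPs are sensors of bacterial proteins, and Naip5 and Naip6 share 96.9% identity over 4398 bases, so reads may be split between them. Birc5 is also a gene of dividing cells, whose summed counts were higher in TNFR2+ Tregs as given above. Of the 6 genes tested among the caspases and their regulators, 1 was higher, which is not reported by name here, and 1 was lower. The lower gene was Casp8, the caspase held in check by the cIAP complex (-0.55, adjusted p = 0.0234, kept in 9 of 17 alternatives). Cflar, which restrains caspase-8, stood at -0.08 (adjusted p = 0.794).

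Of 19 NF-kB-induced genes of lymphocytes, a list that shares members with those above, 9 were higher and none lower (median 0.51), among them Cd83 (2.34), Bcl2a1d (1.94), Bcl2a1b (1.39), Bcl2l1 (1.26) and Gadd45b (0.68, kept in 10 of 17 alternatives). Bcl2a1b and Bcl2a1d are close copies of each other, and reads may be split between them. Nfkbia, the inhibitor that NF-kB induces at once, stood at 0.12 (adjusted p = 0.512). Tnfaip3, also on this list, was lower in every TNFR2+ library but did not pass, as given above. Birc3 and Traf1, named above as induced by NF-kB but not put on this list, had log2 fold changes of -0.63 and -0.16. The other members were not classed by whether NF-kB induces them, and among them Traf2 stood at 0.26, Birc2 at 0.01 and Xiap at 0.72. These lists were written with results of these libraries known, and their counts are a description.

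**Figure D5:**
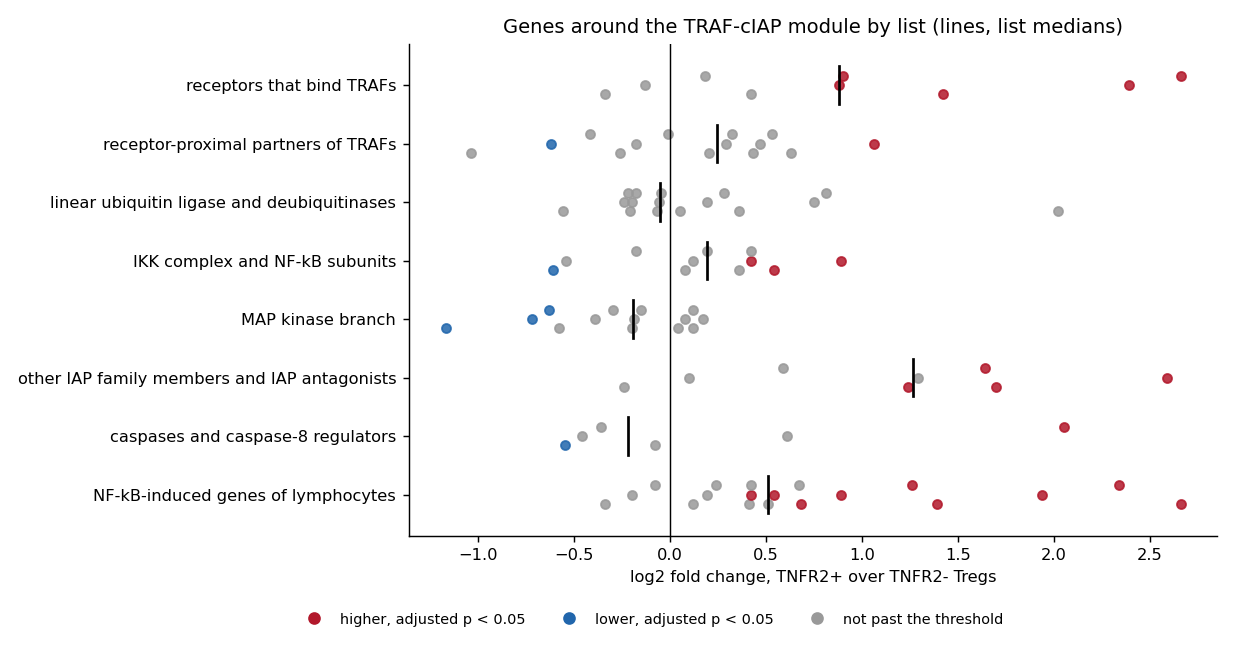
Log2 fold change (x axis, TNFR2+ over TNFR2- Tregs, n = 4 each) of each tested gene in the 8 lists; points are genes, red or blue where they passed the test, and black lines are list medians. The medians run from -0.22 for the caspase list to 1.26 for the other IAP genes, and a gene in several lists is drawn in each.

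The genes whose profile over the 8 libraries lay closest to a called member were named by the smallest root-mean-square difference of centred log2 values, among 10245 genes with a mean of at least 50. For Map3k14 they were Lmbr1l (0.155), Prr7 (0.163) and Pip5k1c (0.181), against a median of 0.63 over all candidates. For Birc3 they were 2700049A03Rik (0.099), Gm37932 (0.102) and Nob1 (0.103), against a median of 0.524. For Traf4 they were Mydgf (0.11), Surf1 (0.149) and Rbm12b2 (0.188), against 0.626. No member was among the 3 nearest genes of another called member.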

How the data were processed

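RNA of TNFR2+ and TNFR2- Tregs from spleen, 4 samples each, was sequenced by the authors from stranded total RNA libraries. Per the labels and the study's methods, reads were trimmed with Trim Galore, quantified with Salmon 1.3.0 on Ensembl GRCm38 and normalized with DESeq2 1.28 in R 4.0. The deposited values are normalized counts per gene, a non-negative signal that is not whole; how transcripts were summed to genes is not given in the sources used here. Size factors assume that most genes do not differ, and every fold change here is relative to that scaling.

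The members and gene lists were chosen with earlier results of these data known. Symbols came from GENCODE annotation of GRCm38 (a match for 20008 of 20172 identifiers). The scale was log2(normalized count + 1), which understates the change of low genes, and the 13990 genes averaging 10 or more were fitted with limma 3.58.1 in R 4.3.3, with an intensity trend and Benjamini-Hochberg adjustment over all of them (two-sided, threshold 0.05). The fit was tested on simulated counts with the same spread setting for every gene and library. That test does not show how firm the calls here are. Single values and ratios were tested by the exact two-sided permutation test over the 70 relabellings of 4 against 4 libraries. Depth was estimated from the steps between low values of single-transcript genes, where 69.7% to 96.5% of values of up to 12 lay within 0.1 of a whole multiple (20.0% by chance); over all genes this share was 49.1% to 66.9%, so reads were not recovered and no count model was run. All 10 members were named, with every gene of the 8 lists that passed the test except 1 of the caspase list. Also named were up to 4 others per list of highest mean, and the 3 genes nearest to each called member. The 17 alternatives changed the pseudocount (0.5 or 5), the filter (none, or a mean of 50), the trend, the scaling, the weights, a replicate block, or left out a library. Replicates differed by more than counting noise (chi-square per gene 23 to 62.7), so no library was a second copy of another, which does not show that they are separate biological samples. A gene of the lists is counted but not reported by name here.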

Additional observations from a re-analysis of the deposited data

Results flagged for a closer look

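Among 134 groups of 4 libraries examined, 6 held a library that stood apart by Dixon's criterion, where chance alone gives about 5% of groups. For the members this was the ratio of Birc3 to Birc2 in TNFR2+ replicate 2, at 1.06 against 0.867 to 0.884 in the other libraries of the group; it was still below every TNFR2- library. TNFR2+ replicate 4 was the low library for Cd40 (91.4, others 117 to 119 normalized counts), Nfkb2 (2010, others 2668 to 2733) and Tank (1520, others 2140 to 2187). Nfkbia was high in TNFR2- replicate 2 (9602, others 8506 to 8545), and Ube2d3 was low in TNFR2- replicate 3 (3495, others 4429 to 4560).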

How the results depend on the processing

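The direction of every member called was the same under all 17 alternatives, but the calls were not firm. Without the intensity trend none of the 10 members was called (0 higher and 0 lower, limma): Traf4 was at 0.80 (adjusted p = 0.128), Birc3 at -0.63 (0.117) and Map3k14 at -0.88 (0.0835). Over all genes that fit called 283 higher and 182 lower in place of 633 and 474, and 1 lower gene of the lists. With array weights Traf4 was at 0.74 (adjusted p = 0.0515), leaving 0 members higher. With libraries rescaled to the same sum, which moved the median log2 fold change of all genes to 0.12 from -0.01, Birc3 was at -0.50 (adjusted p = 0.05), 1 member was lower, 896 genes were higher and 308 lower, and 3 genes of the lists were lower. After quantile normalization Birc3 was at -0.51 (0.0584) and 1 member was lower. Leaving out a library moved Traf4 over 0.65 to 0.94, Birc3 over -0.71 to -0.51, Map3k14 over -0.99 to -0.76 and Xiap over 0.58 to 0.97. It moved the members called over 0 to 1 higher and 0 to 2 lower, all genes called over 339 to 777 higher and 279 to 547 lower, and the lower genes of the lists over 3 to 6. The log2 differences of the ratios ran over -0.72 to -0.49 (Birc3 to Birc2), -0.78 to -0.56 (Traf5 to Traf2) and -1.32 to -0.90 (Map3k14 to Traf3), where 3 against 4 libraries cannot give an exact p under 0.0571.

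Replicate numbers are shared by the labels of both groups. Same-numbered libraries did not deviate together (correlations 0.001, -0.009, -0.039 and -0.005 for numbers 1 to 4). That does not show whether they came from the same mice or sort, so the pairing is not known. With a replicate block the genes called rose from 1107 to 1183. In that limma fit the adjusted p was 0.00602 for Birc3, 0.0301 for Map3k14 and 0.0399 for Traf4. The block left the ratio differences at -0.64, -0.67 and -1.11 with an exact p of 0.125, the smallest that 4 pairs allow.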
